A study of Macaca mulatta with 161 samples.

Results

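The genes described here are 48 listed cell cycle and mitosis genes, chosen by name for their roles as cyclins, mitotic kinases, spindle and kinetochore parts, replication factors and proliferation markers. Of these, 43 have a row among the 16049 genes of the deposited table, and the other 5 (CDC25C, BUB1B, NUSAP1, ANLN and CDT1) were not analysed here. A mean of at least 1 FPKM (fragments mapped to a gene per kilobase of its length and in proportion to all fragments of the cell) was reached by 41 of the 43, as by 9781 genes in all. CCND2 and CCNE2 did not reach it. The 41 were read as 26 mitotic genes, 13 genes of replication and entry into S phase, and 2 D cyclins.

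A dividing cell passes through a growth phase in which D and E cyclins with their kinases open the way to DNA replication. Cyclin A and cyclin B then act with CDK1 to start mitosis, and the anaphase-promoting complex with CDC20 ends it by destroying them. In somatic cells most mitotic mRNAs accumulate late in the cycle and most replication mRNAs around the start of S phase, while cells that have left the cycle carry little of either. Inner cells of a primate blastocyst divide while they separate into epiblast, which carries NANOG, and primitive endoderm, which carries SOX17.

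The values come from 161 single inner cells of cultured rhesus monkey (Macaca mulatta) blastocysts, taken as the cells that the membrane dye PKH26 had not stained from outside. All came from embryos fertilised after ovarian stimulation with rhFSH and rhCG, grown in HECM-9 with serum, stripped of the zona and dissociated. The early stage, with a small cavity at about day 5, has 44 cells. The middle stage at about day 5.5 has 39, the late stage with a fully expanded cavity at about day 6 has 52, and the hatching stage at about day 7 has 26. No label ties a cell to its embryo, animal or culture. Each stage therefore counts as 1 sample, and no test, p-value or standard error is given. All differences are between means of log2(FPKM + 1), the SD is between cells, and a gene is called higher or lower when the means differ by at least 1 log2 unit. This threshold of size stands in for a test. Each count of called members from these means stands beside the percentage of the 9781 genes called by the same rule. Counts recomputed under other settings are mostly given without that percentage. Those counts do not tell a shift of the members from a shift of all genes. A change in the share of cells that carry a transcript and a change per cell are both contained in such a mean.

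Late and hatching cells were divided by which of NANOG and SOX17 had the higher level. There are 19 SOX17-higher and 33 NANOG-higher late cells, and 7 SOX17-higher and 19 NANOG-higher hatching cells. These classes are ranges of 2 levels, not cell types. In late cells 3 SOX17-higher and 4 NANOG-higher cells lay within 2 log2 units of equality, and in hatching cells 0 of 26 did. All 12 primitive endoderm markers that passed the filter were higher in SOX17-higher than in NANOG-higher cells at both stages, by a median of 3.71 log2 units in late and 6.35 in hatching cells. Of 12 epiblast markers, 11 were lower at each stage. SOX17 and NANOG, which set the classes, are themselves among these markers, so part of these counts and medians follows from the class rule. Mean trophectoderm marker levels spanned 2.53 to 4.91 log2 units in hatching SOX17-higher and 2.62 to 4.34 in hatching NANOG-higher cells. The late cell numbered 13 stands apart, with 6.79 for these markers. Recovered reads had a median of 11.9 M per cell (range 3.15 to 20.1 M), and no pair of cells was identical.

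**Figure D1:**
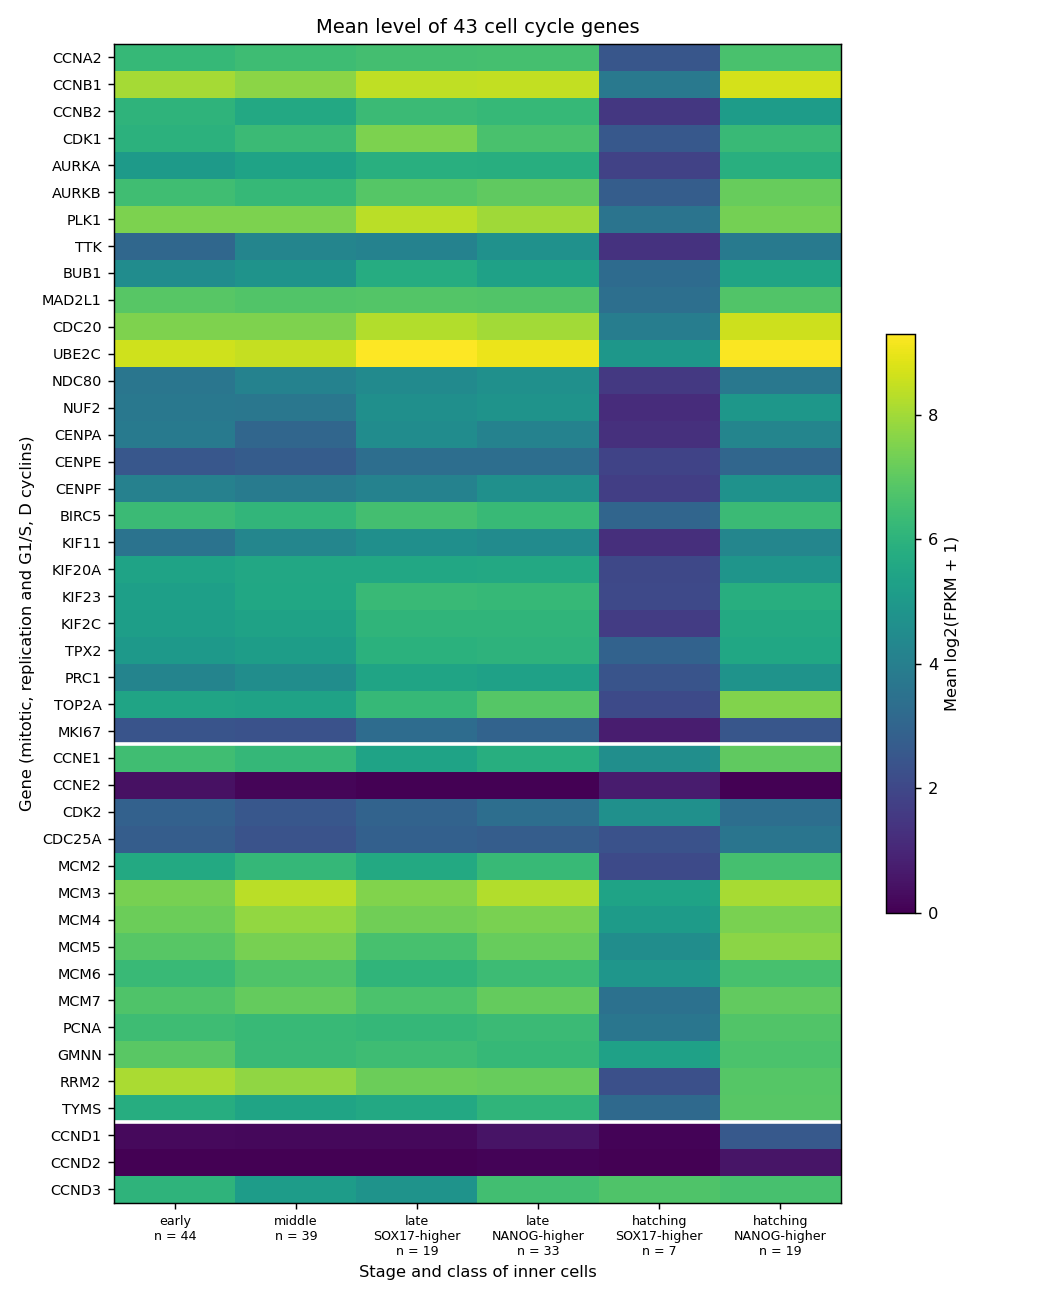
Mean level of the 43 genes with a row. Columns are the early and middle stages and the SOX17-higher and NANOG-higher classes of the late and hatching stages, with the number of cells, rows are genes in 3 blocks, and colour is the mean of log2(FPKM + 1) on a scale that starts at 0. The 7 hatching SOX17-higher cells form the dark column in the upper block.

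Most of these genes were abundant in inner cells of every stage. Of the 43, 34 reached 1 FPKM in at least 90 percent of the cells, and only 3 did so in fewer than 50 percent, all of them G1 cyclins (CCND1, CCND2 and CCNE2). UBE2C, the E2 enzyme that loads ubiquitin for the anaphase-promoting complex, had the highest mean, 8.67 log2 units with an SD of 1.69, above 97.8 percent of the 9781 genes. CCNB1 (cyclin B1, 7.98), MCM3 (a subunit of the replicative helicase, 7.81) and CDC20 (7.67) came next, and these 4 means differ by less than the SD of any of them. MKI67, the source of the Ki-67 antigen, was low by comparison at 2.55, above 45.3 percent of all genes, although it was found in 144 of 161 cells. In the heat map of mean levels the G1 cyclins other than CCND3 and CCNE1 are the darkest rows.

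Between the early and middle stages the list hardly moved. TTK, the checkpoint kinase MPS1, had a median of 20.2 FPKM in middle cells (range 0.0699 to 56.04) and 10.4 FPKM in early cells (0.150 to 29.6), and was the single member called higher in middle cells, by 1.11 log2 units. All genes were called higher in 3.06 percent and lower in 3.61 percent of cases in that comparison, against 1 and 0 of 41 members. The 6 helicase subunits MCM2 to MCM7 were each higher in middle than in early cells, by 0.37 (MCM7) to 0.98 (MCM3), all short of the threshold. MCM3 had a median of 187 FPKM in early, 320 FPKM in middle, 280 FPKM in late and 231 FPKM in hatching cells, and the ranges overlapped at every stage. By contrast GMNN (geminin, the inhibitor of origin licensing) was lower in middle than in early cells, with a difference of -0.61.

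With all cells of each stage averaged, mitotic genes stood highest in the late stage. Against the hatching stage this depends on which hatching cells are counted, as described next. Of the 26, 25 had their highest stage mean in late cells, while of the 13 replication and S-phase entry genes 6 peaked in middle, 4 in early, 2 in hatching and 1 in late cells. Stage peaks were counted for the members only, so the share of all genes highest in late cells is not known here. Late minus middle, the median mitotic gene differed by 0.64 log2 units and the median replication gene by -0.17, with all genes at -0.05. Below 0 lay 1 of 26 mitotic genes and 5302 of 9781 genes, and of the mitotic genes MAD2L1 (-0.00) and KIF20A (0.03) changed sign with the scaling of the cells. TOP2A, the topoisomerase that untangles sister chromatids, was called higher with a median of 113 FPKM in late cells (1.09 to 373) and 44.9 FPKM in middle cells (0.475 to 293), a difference of 1.25. CENPA, the centromeric histone, differed by 1.18 and the kinetochore protein NUF2 by 1.02. In all 3 members were called higher and 0 lower, where 3.95 percent of all genes were called higher and 5.82 percent lower. The count of called members is thus close to that of all genes, and most mitotic differences were below the threshold.

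Taken as a whole stage, hatching cells had lower mitotic gene levels than late cells. The mitotic median was -1.07 log2 units, the replication median -0.14 and the median of all genes -0.14. Called lower were 18 of 41 members, 17 of them mitotic plus RRM2, where 9.87 percent of all genes were, and CCND1 was called higher, where 7.26 percent of all genes were. CCNB2 (cyclin B2) had the lowest value, -2.08, with a median of 26.5 FPKM in hatching cells (0.0692 to 221) and 83.5 FPKM in late cells (1.18 to 287). PLK1, the kinase that drives mitotic entry and spindle assembly, differed by -1.77, and CDK1 by -1.63. For all 3 the highest hatching cell exceeds the late median, and the hatching range extends further down. The count of 18 depends on how cells are averaged: it was 4 with a pseudocount of 10, 3 from medians over cells and 0 from the log2 of mean FPKM. The mitotic median depends on which hatching cells are counted. It was -2.67 for the 12 hatching cells with title numbers 1 to 18 and 0.17 for the 14 numbered above 18, and the number of members called lower was 31 in the 12 cells, where 20.9 percent of all genes were lower, and 0 in the 14, where 8.85 percent were. The labels do not say what the number means. All 7 SOX17-higher cells are among the 12.

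Hatching minus early, 5 members were called lower and 1 higher, where 16.2 percent of all genes were lower and 11.3 percent higher, so the list did not stand out. RRM2, the small subunit of ribonucleotide reductase that makes deoxynucleotides, was the lowest at -2.49. Its median was 288 FPKM in early cells (130 to 600), 226 FPKM in middle cells (87.3 to 523), 150 FPKM in late cells (27.2 to 469) and 100 FPKM in hatching cells (0.266 to 240). Each stage median is below the one before it, and neighbouring stages overlap. The other 4 were CCNB2 (-1.87), KIF20A (a kinesin of cytokinesis, -1.31), PLK1 (-1.12) and MAD2L1 (the checkpoint protein MAD2, -1.04). With a pseudocount of 10, medians over cells or the log2 of mean FPKM, 1, 2 and 1 members were called lower, and 3 under median-of-ratios scaling or the same summed FPKM per cell.

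**Figure D2:**
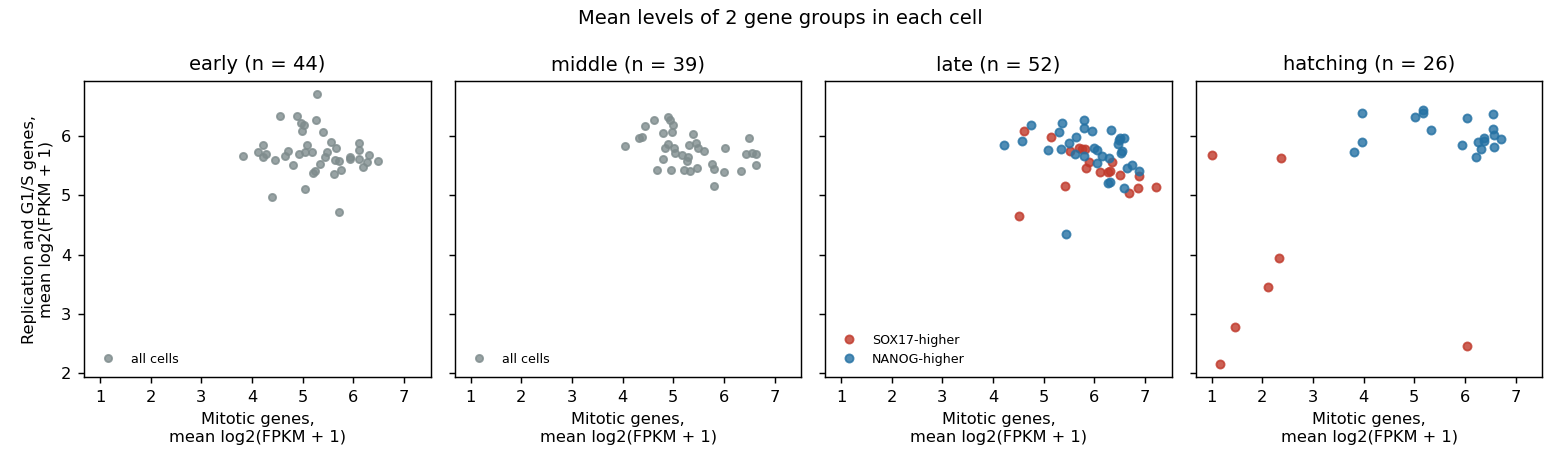
Mean log2(FPKM + 1) of the mitotic genes (x axis) and of the replication and S-phase entry genes (y axis) in each cell, 1 panel per stage. Red points are SOX17-higher and blue points NANOG-higher cells (late and hatching), grey points all cells of the earlier stages. Classes overlap in late cells and separate in hatching cells, where 1 red point lies at 6.04 on the x axis and 2.46 on the y axis.

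Among late cells the mitotic genes did not separate the classes. Their mean per cell was 5.97 ± 0.73 log2 units in the 19 SOX17-higher cells and 5.93 ± 0.66 in the 33 NANOG-higher cells (SD), and the median gene differed by 0.03. None of the 41 members was called higher, where 7.69 percent of all genes were, and 1 was called lower, where 7.89 percent were. CDK1, the kinase partner of cyclins A and B, came nearest among mitotic genes, with a median of 219 FPKM in SOX17-higher cells (27.8 to 473) and 107 FPKM in NANOG-higher cells (26.6 to 416), a difference of 0.82. Both classes cover nearly the same range.

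The 1 member called lower in late SOX17-higher cells was CCND3, cyclin D3. It had a median of 30.8 FPKM in SOX17-higher cells (0.699 to 311) and 111 FPKM in NANOG-higher cells (0.229 to 450), a difference of -1.71. The plots of single cells show SOX17-higher cells spread over the whole range, while most NANOG-higher cells lie in its upper part. With FPKM averaged before taking logs, 0 members were called lower. The replication and S-phase entry genes were slightly lower in SOX17-higher cells, with a median of -0.41 and 10 of 13 below 0, led by MCM3 (-0.69) and MCM2 (-0.60). No share of all genes below 0 is set beside that count, so it does not mark these genes out. The replication median was 0.038 in the late cells numbered up to 22 alone and -0.57 in those numbered above 22. Both leave out the 5 late cells whose titles begin with HS, a prefix the labels do not explain. Within the classes, the Spearman rho of the median replication gene with NANOG was 0.34 over the 19 SOX17-higher cells and 0.27 over the 33 NANOG-higher cells, and that of the median mitotic gene -0.24 and -0.06. The median over all genes was 0.002 and -0.010. With SOX17 the rho was weaker in the same classes, at -0.14 and -0.08 for the median replication gene and -0.01 and 0.04 for the median mitotic gene. In the late NANOG-higher cells the rho with NANOG ran to 0.56 for MCM5 but was -0.59 for CDK2, and MCM5 had 0.20 over the 19 hatching NANOG-higher cells. In those hatching cells 24 of 26 mitotic genes had a rho with SOX17 below 0 (median -0.28), as had 5042 of 9719 genes (median -0.01). SOX17 itself was at most 1.76 log2 units there. These points share a stage and possibly embryos.

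Hatching SOX17-higher cells had low levels of nearly the whole list. Of 41 members 39 were called lower than in hatching NANOG-higher cells, where 33.7 percent of all genes were: all 26 mitotic genes, 12 of 13 replication and S-phase entry genes, and CCND1. CCND1 reached 1 FPKM in only 29 of 161 cells, most often in hatching NANOG-higher cells. That class helped it pass the filter, so its call here follows in part from the filter. The median mitotic gene differed by -3.51 log2 units and the median replication gene by -2.70, against -0.45 for all genes. CDK2 was the 1 member called higher, where 14.2 percent of all genes were, and CCND3 differed by 0.13. The plot of differences between the classes sets the late stage, scattered around 0, beside the hatching stage.

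**Figure D3:**
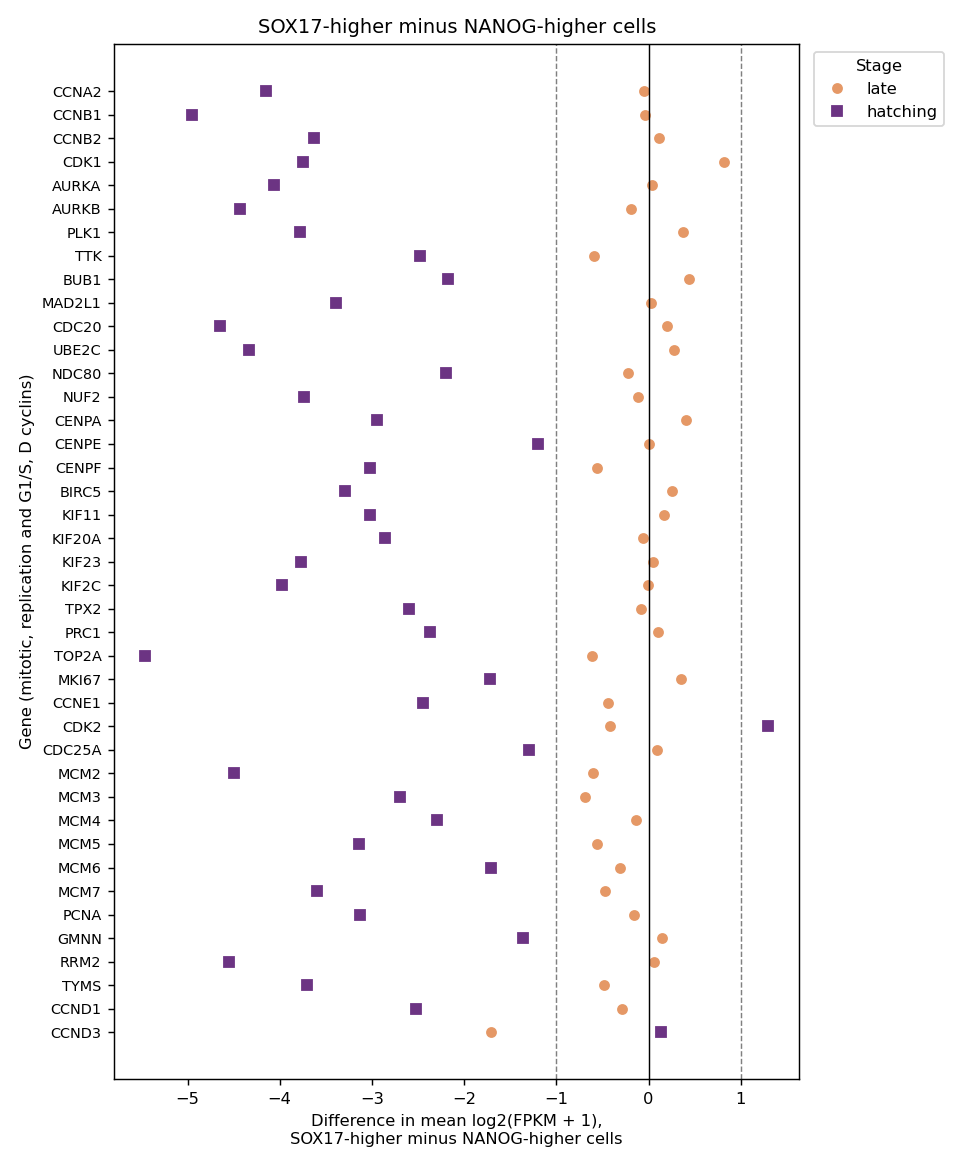
Difference in mean log2(FPKM + 1), SOX17-higher minus NANOG-higher cells, for the 41 members that passed the filter. Orange circles are late cells (19 and 33 cells), purple squares hatching cells (7 and 19 cells), and dashed lines mark 1 log2 unit either way. Late values lie near 0 except CCND3 (-1.71), hatching values lie between -5.46 (TOP2A) and 1.30 (CDK2).

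Regulators of mitotic entry were lower in SOX17-higher cells. CCNB1 had 615, 31.9, 6.19, 3.28, 2.86, 6.93 and 3.24 FPKM in the SOX17-higher cells numbered 1, 5, 8, 10, 11, 13 and 18, and a median of 452 FPKM in the NANOG-higher cells (125 to 803), a difference of -4.95. Only the cell numbered 1 lies within the NANOG-higher range. CDK1 had 123, 28.5, 0.854, 11.4, 0.254, 0.411 and 0.687 FPKM in the same cells and a median of 86.4 FPKM in NANOG-higher cells (15.3 to 285), a difference of -3.75. CCNA2 (cyclin A2, -4.15), CCNB2 (-3.63), PLK1 (-3.78), AURKA (the centrosomal Aurora kinase, -4.06) and AURKB (the Aurora kinase of the chromosomal passenger complex, -4.43) were also called lower.

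Genes of anaphase and of the chromosomes followed the same pattern. TOP2A had 101, 1.05, 0.736, 3.32, 1.17, 1.38 and 2.02 FPKM in the SOX17-higher cells and a median of 241 FPKM in NANOG-higher cells (34.9 to 396), the largest difference of the list at -5.46. UBE2C had 2224, 144, 6.34, 28.3, 4.73, 7.65 and 5.96 FPKM in the SOX17-higher cells and a median of 920 FPKM in NANOG-higher cells (128 to 1805), a difference of -4.33. CDC20, the activator of the anaphase-promoting complex, differed by -4.65. Cell 1 lies within the NANOG-higher range for TOP2A and above it for UBE2C, and cell 5 lies within it for UBE2C. Kinetochore and spindle genes differed less, with medians of -2.98 and -2.94 over 6 genes each. CENPA, NDC80, KIF11, NUF2 and CENPF had means over all cells of only 3.73 to 4.13 log2 units, which limits how far they can fall. BIRC5 (6.14) and the spindle genes other than KIF11 (4.66 to 5.57) started higher. CENPE, a kinetochore motor, had the smallest difference of a mitotic gene at -1.20. MKI67 differed by -1.72 with 4.90, 0.0163, 4.42, 0.0267, 0.0487, 0.0887 and 0.0270 FPKM in the SOX17-higher cells. The means of CENPE and MKI67 over all cells, 2.87 and 2.55 log2 units, are the lowest of the mitotic genes and limit how far they can fall.

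Replication genes were lower too, with wider spread between the cells. MCM2 differed by -4.50, MCM7 by -3.60, MCM5 by -3.14, MCM3 by -2.70, MCM4 by -2.30 and MCM6 by -1.70. MCM5 had 1.73, 284, 0.939, 99.7, 249, 59.3 and 0.747 FPKM in SOX17-higher cells 1, 5, 8, 10, 11, 13 and 18, and a median of 201 FPKM in NANOG-higher cells (82.8 to 470). Cells 5, 10 and 11 lie within the NANOG-higher range and cells 1, 8 and 18 are near 1 FPKM. PCNA, the sliding clamp of the replication fork, had 1.10, 28.4, 43.5, 85.6, 70.3, 0.845 and 0.514 FPKM in the same cells and a median of 110 FPKM in NANOG-higher cells (43.9 to 233), a difference of -3.13. RRM2 (-4.55) and TYMS (thymidylate synthase, -3.71) make DNA precursors. TYMS had 0.797 to 28.7 FPKM in SOX17-higher cells and 65.5 to 236 FPKM in NANOG-higher cells, so that its ranges did not overlap. It was alone in this among the 41 members, where 196 of 9781 genes had every SOX17-higher cell below every NANOG-higher cell.

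Low mitotic and low replication levels were not always in the same cells. SOX17-higher cell 1 had a mitotic mean of 6.04 log2 units, within the NANOG-higher range of 3.81 to 6.71, and a replication mean of 2.46, below the range of 5.64 to 6.43. None of its 26 mitotic genes but 11 of its 13 replication genes lay below every NANOG-higher cell. Cells 5 and 11 had low mitotic means beside higher replication means, with mitotic means of 2.37 and 1.00 and replication means of 5.62 and 5.67, just below and just above the lowest NANOG-higher cell. Cells 5, 8, 10, 13 and 18 were below the NANOG-higher range on both means. In cells 5, 8, 10, 11, 13 and 18, 12 to 15 mitotic genes lay below every NANOG-higher cell. Without cell 1, 39 members were called lower, where 33.9 percent of all genes were, and 4 (CCNB1, CDC20, TOP2A and TYMS) were lower in every cell, where 2.25 percent were. Cell 1 was left out after its values were seen, and it has the highest mitotic mean of the SOX17-higher cells. The non-overlap of CCNB1, CDC20 and TOP2A therefore follows in part from that choice, and the 2.25 percent is not a like comparison for them. Low values rest on few reads, such as 3 to 16 recovered reads of CDK1 in the 4 cells below 1 FPKM, against 2141 in cell 1.

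CDK2 and CCND3 did not share the low levels. CDK2, the partner of cyclins E and A, had 20.3, 25.9, 26.7, 2.47, 69.6, 20.01 and 78.1 FPKM in the hatching SOX17-higher cells and a median of 12.8 FPKM in NANOG-higher cells (0.289 to 23.2), a difference of 1.30. Of the 7 cells 4 exceed the highest NANOG-higher cell. CCND3 had 24.6, 167, 316, 44.5, 474, 91.6 and 56.2 FPKM in the same 7 cells and a median of 110 FPKM in NANOG-higher cells (36.6 to 197). Its level in hatching SOX17-higher cells was 1.96 log2 units above that of late SOX17-higher cells. GMNN (-1.36), CDC25A (the phosphatase that activates CDK2, -1.29) and CCNE1 (cyclin E1, -2.45) differed less than most. For CDC25A a low mean of 2.76 log2 units over all cells limits how far it can fall. CCNE1 had 24.9 to 110 FPKM in 5 of the 7 cells. The SOX17-higher cell 11 alone among hatching cells had CCNE2 (cyclin E2) above 1 FPKM, at 30.6.

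**Figure D4:**
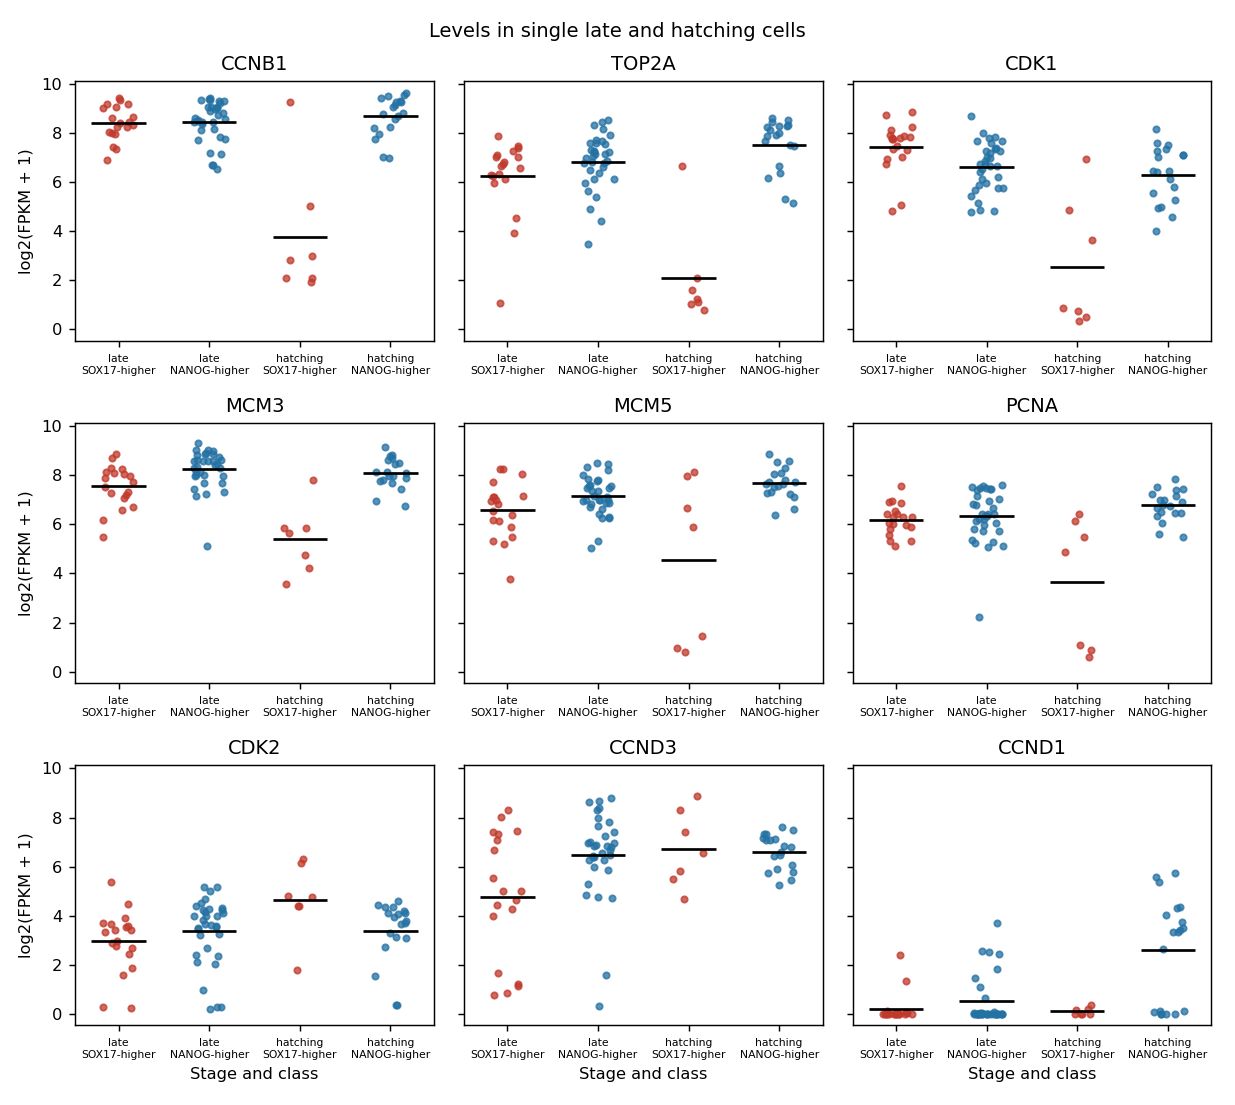
Levels of 9 members in single late and hatching cells, as log2(FPKM + 1). Red points are SOX17-higher cells, blue points NANOG-higher cells, black lines the mean of each class, and points are spread sideways for visibility only. CCNB1, TOP2A and CDK1 are low in most hatching SOX17-higher cells, and MCM5 and PCNA fall into high and low cells there. The hatching SOX17-higher means of CDK2 and CCND3 are as high as those of hatching NANOG-higher cells or higher, though single cells lie lower. In late cells the CCND3 mean is lower in SOX17-higher cells. CCND1 appears mainly in hatching NANOG-higher cells.

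Depth and title number also moved with the classes. The 7 SOX17-higher hatching cells had a median of 9.74 M recovered reads and 5680 genes at 1 FPKM or more, the 19 NANOG-higher cells 13.2 M and 6940. With each cell reduced to 2.5 M reads the medians were -3.59 for mitotic and -2.75 for replication genes, as large as at full depth. Within title numbers 1 to 18 (7 and 5 cells, with 9.74 M and 9.02 M reads) they were -2.56 and -2.81, with 32 of 41 members lower, where 31.5 percent of all genes were, and 3 lower in every cell, where 4.10 percent were. CCNB1 (-4.15), TOP2A (-4.49), CDC20 (-4.07), MCM2 (-4.81) and RRM2 (-4.10) were among the largest there, while CCNB2 (-0.09) and PRC1 (a spindle midzone protein, -0.69) were not called. The number range moved with mitotic genes inside the NANOG-higher class as well, where 19 members were higher in the 14 cells numbered above 18 than in the 5 numbered up to 18, against 16.1 percent of all genes, led by CCNB2 (4.81) and PLK1 (3.58). The replication means of those cells were alike, 6.03 and 6.08. The part of the number range in the class difference was not tested further. Median-of-ratios scaling, with a median factor of 0.658 in SOX17-higher and 1.00 in NANOG-higher cells, moved the median of all genes to -0.15, and mitotic genes were then at -3.11 and replication genes at -2.03. All 41 members kept their sign under both other scalings.

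Against late SOX17-higher cells, hatching SOX17-higher cells gave nearly the same picture. All 26 mitotic genes and 10 of 13 replication genes were called lower, 36 members in all, where 29.8 percent of all genes were. CCND3 (1.96) and CDK2 (1.71) were called higher, where 11.3 percent of all genes were. The mitotic median was -3.52, the replication median -2.16 and that of all genes -0.40. This comparison and the one with NANOG-higher cells share the same 7 cells.

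NANOG-higher cells had similar mitotic and replication levels in the hatching and late stages. Hatching minus late, their median mitotic gene differed by -0.10 and their median replication gene by 0.31, with all genes at -0.03. For the 5 hatching cells numbered up to 18 alone the mitotic median was -0.95. CCND1 and CCNE1 were called higher, where 9.41 percent of all genes were, and CCNB2 was called lower (-1.06), where 8.02 percent were. CCNE1 had a median of 142 FPKM in hatching NANOG-higher cells (46.9 to 288) and 69.2 FPKM in late NANOG-higher cells (1.09 to 256), a difference of 1.20. CCND1, cyclin D1, had a median of 9.16 FPKM in hatching NANOG-higher cells (0 to 51.8) and 0 FPKM in late NANOG-higher cells (0 to 11.9), a difference of 2.12. The number of members called higher was 0 with a pseudocount of 10, 1 with FPKM averaged before taking logs and 4 for hatching cells numbered above 18.

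CCND1 was found most often in hatching NANOG-higher cells. These cells helped it pass the filter, so its calls in comparisons with them or with the whole hatching stage follow in part from the filter. It reached 1 FPKM in 4 of 44 early cells (9.09 percent, exact Clopper-Pearson 95 percent interval 2.53 to 21.7), 4 of 39 middle cells (10.3 percent, 2.87 to 24.2), 9 of 52 late cells (17.3 percent, 8.23 to 30.3) and 12 of 26 hatching cells (46.2 percent, 26.6 to 66.6). In hatching cells it reached 1 FPKM in 0 of 7 SOX17-higher cells (exact upper bound 40.96 percent), with 4, 6 and 4 recovered reads in cells 11, 13 and 18, and in 12 of 19 NANOG-higher cells (63.2 percent, 38.4 to 83.7). The intervals cover the counting of cells only. CCND2, cyclin D2, reached 1 FPKM in 0 early, 0 middle, 1 late and 3 hatching cells, and CCNE2 in 5, 2, 0 and 1. CCND3 was found in 42 of 44, 36 of 39, 49 of 52 and 26 of 26 cells in the same order of stages, which makes it the D cyclin of nearly every inner cell.

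Within a stage the mitotic genes went up and down together from cell to cell. Among the 325 pairs of mitotic genes, a Spearman rho of at least 0.5 was found in 21.8 percent over 44 early, 24.9 percent over 39 middle and 30.8 percent over 52 late cells, where 0.119, 0.190 and 0.289 percent of all gene pairs reached it. Over 19 cells of a class the share was 38.8 percent in late SOX17-higher and 41.5 percent in hatching NANOG-higher cells, where 2.11 and 1.83 percent of all pairs did. Genes that followed the mean of the other mitotic genes closely include CCNB1 (rho 0.78 in early, 0.86 in middle cells), UBE2C (0.76 and 0.76) and TPX2, the activator of Aurora A (0.80 and 0.81). MAD2L1 followed it little, at 0.16 and 0.29. Replication genes were less tied to each other, with 2.56, 3.85 and 12.8 percent of 78 pairs in early, middle and late cells.

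In early, middle and late cells the mitotic and the replication mean tended to run against each other, least in early cells. Their rho was -0.24 over 44 early, -0.46 over 39 middle and -0.43 over 52 late cells, -0.50 within the 19 late SOX17-higher and -0.39 within the 33 late NANOG-higher cells. Over pairs of a mitotic with a replication gene the median rho was weaker, at -0.08 in early, -0.14 in middle and -0.15 in late cells. MCM5 had -0.66 with the mitotic mean in middle cells and MCM2 -0.61, the lowest values there. RRM2 (0.09), TYMS (0.14), CCNE1 (0.20) and CDC25A (0.03) lay above 0 in the same cells. CDK2, CDC25A and the D cyclins followed neither direction in late cells, with rho between -0.18 and 0.21 in either class. All genes of a cell share its depth and its scaling to total fragments, which these values contain. In hatching NANOG-higher cells the rho of the mitotic with the replication mean was -0.16 over 19 cells. The 26 hatching cells fall into separate clusters by class, and pooled over them it was 0.42, a value not read as a relation.

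Of 6 inhibitors of the cyclin-dependent kinases with a row, 2 passed the filter, and neither was called higher in hatching SOX17-higher cells. CDKN1A (p21) reached 1 FPKM in 0 of 7 SOX17-higher and 2 of 19 NANOG-higher hatching cells, and CDKN1B (p27) in 1 of 7 and 3 of 19. CDKN2D (p19) had a median of 32.4 FPKM in SOX17-higher (0.135 to 133) and 21.3 FPKM in NANOG-higher hatching cells (0 to 106). Over the stages, CDKN2D had medians of 109 FPKM in early, 55.4 FPKM in middle, 47.3 FPKM in late and 21.7 FPKM in hatching cells, a difference of -2.90 for hatching minus early. CDKN1A was found in 2 of 26 hatching cells and 16 of 44 early cells (-1.37). CDK4, the partner of the D cyclins, was in all 161 cells, with a median of 131 FPKM in hatching SOX17-higher and 183 FPKM in hatching NANOG-higher cells.

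Other genes of the cycle, taken from lists of the pathway, were also often lower in hatching SOX17-higher cells. In the lists together 81 of 119 genes were called lower in SOX17-higher than in NANOG-higher hatching cells, where 33.7 percent of all genes were. Among APC and separase genes 14 of 17 were lower, led by UBE2S, the chain-extending E2 partner of UBE2C (-4.66), among further kinetochore and passenger genes 13 of 15 (SPC25, -4.80), among further spindle genes 12 of 14 (KIF15, -4.49), and among genes controlling mitotic entry 8 of 12 (MYBL2, a transcription factor of mitotic genes, -5.16). Origin licensing and firing had 10 of 15 (MCM10, -3.95), fork and nucleotide genes 12 of 19 (among them DUT, dUTPase, -3.31), condensin and cohesin 7 of 12 (NCAPG, -2.24), and the RB and E2F group 5 of 13 (E2F4, -2.96), a share near that of all genes.

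RRM1, the large subunit of ribonucleotide reductase, went the other way from its partner RRM2. It had a median of 801 FPKM in hatching SOX17-higher cells (556 to 1420) and 53.4 FPKM in hatching NANOG-higher cells (0.292 to 106), a difference of 4.49 with no overlap. In late cells the medians were 441 FPKM in SOX17-higher (88.9 to 860) and 58.7 FPKM in NANOG-higher cells (15.5 to 335), a difference of 2.62. RRM2 in contrast had a median of 0.801 FPKM in hatching SOX17-higher cells (0.266 to 47.2) and 119 FPKM in hatching NANOG-higher cells (42.8 to 240). In late cells RRM2 differed by 0.06 between the classes. Of all cell cycle genes in these lists RRM1 had the largest positive difference at both stages.

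Other stage differences of the lists were few. Hatching minus early, TFDP2, a partner of E2F factors, was higher by 2.41 and UHRF1, which links replication to DNA methylation, by 1.85, while TK1, thymidine kinase (-1.82), and MYBL2 (-1.49) were lower. UHRF1 reached 1 FPKM in 12 of 44 early, 12 of 39 middle, 24 of 52 late and 18 of 26 hatching cells. In late cells E2F1, a factor that drives S-phase genes, was lower in SOX17-higher than in NANOG-higher cells (-1.34), with 7 of 19 and 23 of 33 cells at 1 FPKM.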

How the data were processed

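The authors deposited FPKM values, 1 table of 16049 gene symbols by 161 cells. FastQC, TopHat2 2.1.0, HTSeq and DESeq2 are named in the submitters' processing notes, with no role or order, and the genome build, like the annotation, is not given in the sources used here. cDNA was amplified by PCR without molecular identifiers and sequenced as paired reads, per the labels' protocols. From the deposited FPKM, differences of mean log2(FPKM + 1) were computed (pseudocount 1, mean FPKM of at least 1, called at 1 log2 unit), with Python 3.11.15, pandas 2.3.3, numpy 2.4.6, scipy 1.17.1 and matplotlib 3.10.9. Low FPKM values come in steps, from which whole reads were recovered for 13857 of 13857 genes with at least 2 values above 0, to a relative precision of 1e-08 or an absolute one of 1e-05. Depth was compared on cells reduced to 2.5 M reads. No count test was run, since each stage is 1 sample.

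Members and lists were chosen with earlier results of these data known. Named are, per comparison, up to 6 members each way past 1 log2 unit, a set of fixed cyclins, kinases and MCM genes, and up to 3 genes of each wider list. Other named genes were chosen after their values were seen, as were the comparison of hatching with late SOX17-higher cells, the title ranges inside NANOG-higher cells and the cells left out. No sequence was used here. The computation was tested on simulated cells.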

Additional observations from a re-analysis of the deposited data

How the results depend on the processing

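Median differences of the mitotic and of the replication group were recomputed under other pseudocounts, summaries, scalings, filters, depths, class rules and title ranges, and 202 of 218 stayed within 1 SD between cells. This SD is the mean of those of the group's mean per cell in the 2 sets compared. For mitotic genes it was 1.93 in hatching and 0.68 in late cells. A shift as large as the mitotic median of hatching minus late thus stays within it, and the tally says little on whole-hatching comparisons. Counts of called members were recomputed in the same way, a choice made after seeing the data, and 61 of 83 stayed within 1.5 times.

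Title numbers moved comparisons of the whole hatching stage. With hatching cells 1 to 18 alone, the mitotic median was -1.91 for hatching minus early, -2.67 for hatching minus late and -0.95 for NANOG-higher cells, and 29 and 31 members were lower than in early and late cells. With those numbered above 18 the medians against early and late cells were 0.88 and 0.17, both opposite in sign to those of cells 1 to 18. Only the second counts as reversed, since that label needs a median over all hatching cells of at least 1 log2 unit either way. In these cells 1 and 0 members were lower than in early and late cells, and 4 were higher in NANOG-higher cells. No SOX17-higher cell is numbered above 18, so the class difference has no value there. With late cells up to 22 alone, and without those whose titles begin with HS, the replication median of SOX17-higher minus NANOG-higher cells was 0.038 with 2 members lower, 1 member was higher than in middle cells, and above 22 alone 3 members were lower in SOX17-higher cells.

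In the comparisons of hatching SOX17-higher cells, how cells are averaged moved sizes, not directions. For hatching SOX17-higher minus NANOG-higher cells, the mitotic median was -1.94 with a pseudocount of 10, -4.98 from medians over cells and -2.01 from the log2 of mean FPKM, and the replication median -1.74 and -1.52 under the last 2. Against late SOX17-higher cells these were -2.21, -4.99 and -2.02, and -0.92 and -1.23. Between the whole hatching and early stages the direction did change. The mitotic mean per cell averaged 4.82 log2 units in hatching and 5.25 in early cells, while its median was 5.64 in hatching and 5.25 in early cells. Members lower for hatching minus late numbered 4, 3 and 0, and for hatching minus early 1, 2 and 1, with 3 under either other scaling. Late minus middle gave 1 higher with a pseudocount of 10 and 0 from the log2 of mean FPKM, NANOG-higher cells 0 and 1. Late SOX17-higher minus NANOG-higher gave 0 lower from the log2 of mean FPKM and 2 without cells near equality. The cause of these shifts was not tested. Leaving out hatching cell 1 or late cell 13 changed none of them beyond these limits.

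No paired analysis was possible because no label pairs cells between stages. The limit is that each stage is 1 sample, that 7 cells carry the hatching SOX17-higher values, and that the labels do not tell which cells share an embryo. Shares of cells are limited by the number of cells, and values under 1 FPKM rest on few reads.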
